A study of Mus musculus with 8 samples.

Results

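The comparison described here is the baseline genotype effect in the mouse right ventricle, that is, Fpr2-KO against wild-type (WT) mice that had not been challenged. Its members are the 4 control libraries, 2 per genotype, of the 8 bulk RNA sequencing libraries in the series, chosen by the names of their count columns, and all 30495 genes of the count table were examined. The Fpr2-KO controls and the WT controls were female mice of 8 weeks kept in normal air for 21 days, and the 2 other groups were Fpr2-KO and WT mice given Sugen at 20 mg/kg with 3 weeks of hypoxia (SuHx). Sugen blocks the VEGF receptor, and with low oxygen it raises pulmonary artery pressure and loads the right ventricle. SuHx libraries enter here to share the estimate of spread and as a separate, loaded setting for the same genotype contrast. The mouse strain, the design of the deleted allele and whether animals were pooled are not given in the labels. The genotype field of 3 of the 4 Fpr2-KO samples reads Fpr3-KO, Fpr4-KO and Fpr5-KO while their titles read Fpr2-KO, and the titles were followed.

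Formyl peptide receptor 2 is a G protein-coupled receptor of neutrophils, monocytes and other cells. It binds formylated peptides that bacteria and damaged mitochondria release, and also annexin A1 and lipid mediators that limit inflammation. Neutrophils and monocytes are few in a ventricle at rest.

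Each control library held between 67965311 and 70052583 counts, of which 24.2 to 26.1% fell on genes of the mitochondrial genome. All levels below are in CPM, the read count scaled to the library size after TMM normalisation. A gene is called changed where edgeR's quasi-likelihood test, fitted on all 8 libraries, gave a Benjamini-Hochberg adjusted p below 0.05 over the 19083 genes tested. The labels do not say that replicate libraries came from separate animals, so the p-values measure the spread between libraries, which may be technical. The libraries are named by the numbers in their column names, Fpr2-KO control 2 and 3 and WT control 1 and 2. In a principal component analysis of the 4 control libraries, the first component held 47.3% of the variance and placed the Fpr2-KO libraries at -45.9 and -51.9 and the WT libraries at 82.0 and 15.8, so WT control 1 lay farther from the Fpr2-KO pair than WT control 2 did. Summed over 12 cardiomyocyte markers, the libraries held 53173 and 45128 CPM in Fpr2-KO controls and 41114 and 41791 CPM in WT controls, with no marker at 0, 0 called by edgeR, 4 at an unadjusted p below 0.05 and 3 called by DESeq2. Atrial muscle genes were summed as well, since atrial tissue borders the right ventricle. The 9 atrial markers came to 125 and 167 CPM in Fpr2-KO controls and 202 and 434 CPM in WT controls, and the regulator sarcolipin (Sln) was at 0 in both Fpr2-KO libraries and at 5.94 and 16.96 CPM in the WT libraries. Among the SuHx libraries, Fpr2-KO SuHx 2 stood apart in these genes, with the atrial light chain Myl4 at 426 and 0.962 CPM in Fpr2-KO SuHx 2 and 3 and at 1.21 and 5.21 CPM in the WT SuHx libraries. Of the 9 atrial markers edgeR called 0 in controls, with 0 at an unadjusted p below 0.05, and DESeq2 called 2. The part of atrial tissue in the results below was not tested.

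The targeted gene was looked at first. Fpr2 (ENSMUSG00000052270, chr17:17887824-17893952, plus strand) had 0 and 0 counts in the Fpr2-KO control libraries and 19 and 23 counts in the WT control libraries. It had 0 counts in both Fpr2-KO SuHx libraries as well, against 12 and 12 counts in the WT SuHx libraries, so every library labelled Fpr2-KO lacked reads and every WT library had some. With the 42 counts of the WT controls set against a floor of 3 counts over the Fpr2-KO controls, Fpr2 was at least 14.1-fold lower in Fpr2-KO controls, and its adjusted p in edgeR's test was 0.0866, above the threshold at this depth. Fpr1, the neighbouring receptor for formylated peptides, had 8 and 39 counts in Fpr2-KO controls and 4 and 6 counts in WT controls. Fpr3, whose gene model overlaps that of Fpr2 on the same strand, had 0 and 4 counts in Fpr2-KO controls and 0 and 0 counts in WT controls. Both were too low to be tested.

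No tested ligand, processing enzyme or related receptor of Fpr2 was called. Of 18 tested genes of this list, Fpr2 included, 0 were called by edgeR and 2 had an unadjusted p below 0.05, and DESeq2 called 0. Of all tested genes, 2.60% were called by edgeR and 20.8% had an unadjusted p below 0.05, 10.5% higher and 10.3% lower. Anxa1, which encodes the ligand annexin A1, was at 20.9 and 18.3 CPM in Fpr2-KO controls and 26.1 and 21.4 CPM in WT controls (log2 fold change -0.28 ± 0.17, SE, n = 2 libraries per group; adjusted p = 0.411, edgeR). Cmklr1, a receptor for chemerin and the lipid mediator resolvin E1, was at 16.5 and 15.4 CPM in Fpr2-KO controls and 7.92 and 11.8 CPM in WT controls (0.69 ± 0.26; adjusted p = 0.178, edgeR). The genotypes overlapped for neither gene, yet that alone says little, because the groups did not overlap for 47.8% of all tested genes. Genes beside Fpr2 were examined because a targeted allele can carry neighbouring sequence of its donor strain. Within 2 Mb of Fpr2, 0 of 17 tested genes, Fpr2 itself included, were called by edgeR and DESeq2 called 0. The 2 with an unadjusted p below 0.05 in edgeR were Fpr2 itself and Vmn2r97. Within 10 Mb, 4 of 276 tested genes were called, namely Crebrf, Pde10a, Slc9a3r2 and Amdhd2. In this window 49 of the tested genes, Fpr2 among them, had an unadjusted p below 0.05 in edgeR. DESeq2, run without edgeR's filter, called 22 of the 413 genes listed in this window, beside 1787 of 29206 over all genes. How many of the 413 it tested was not counted.

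Across all genes, 497 were called between Fpr2-KO and WT controls, which is 2.60% of the genes tested. Of these, 272 were higher in Fpr2-KO controls (1.43%) and 225 were lower (1.18%), and 208 differed at least 2-fold, 121 higher and 87 lower. The median log2 fold change was 0.93 among the higher genes and -0.91 among the lower genes. The higher genes included those of the channel subunit Cacnb2, the VEGF co-receptor Nrp1 and the chemokine receptor Ccr2, and the lower genes those of the immediate early factor Nr4a1, the sestrin Sesn1 and the lipase Lipe. WT control 1 lay farther from the Fpr2-KO libraries than WT control 2 did for 203 of the 272 higher genes and for 195 of the 225 lower genes.

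How many genes were called depended on single libraries. Without Fpr2-KO control 2, edgeR called 0 genes, with 3418 at an unadjusted p below 0.05, and without Fpr2-KO control 3 it called 6. Without WT control 1 it called 123 genes, and without WT control 2 it called 2370. Leaving out an SuHx library, which enters the comparison only through the shared spread, scaling and filter, left 172 to 228 calls. On the 4 control libraries alone edgeR called 0 genes, with 2763 at an unadjusted p below 0.05. DESeq2 on all 8 libraries tested 29206 genes and called 1787, of which 493 were among the 497. The fit without WT control 2 tested 20185 genes. Counts of list members called by DESeq2 or without WT control 2 belong beside these totals, not beside the shares of the fit reported. All 497 genes kept their direction in every one of these fits that gave them a value. The fits share control libraries with the fit that chose these genes, so the kept directions are no separate support. No single gene was called in every fit, which holds for each gene described below. In simulated counts for this comparison over 19083 genes, edgeR recovered 39 of 100 genes changed by 1 on the log2 scale and 84 of 100 changed by 2, and 12 of its calls were false, 8.89% of all calls. The changed genes were drawn from those with a mean of at least 1 CPM, and each gene had the same spread in all groups. Real replicates differed more in controls than under SuHx, so these rates need not hold for the real comparison.

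**Figure D1:**
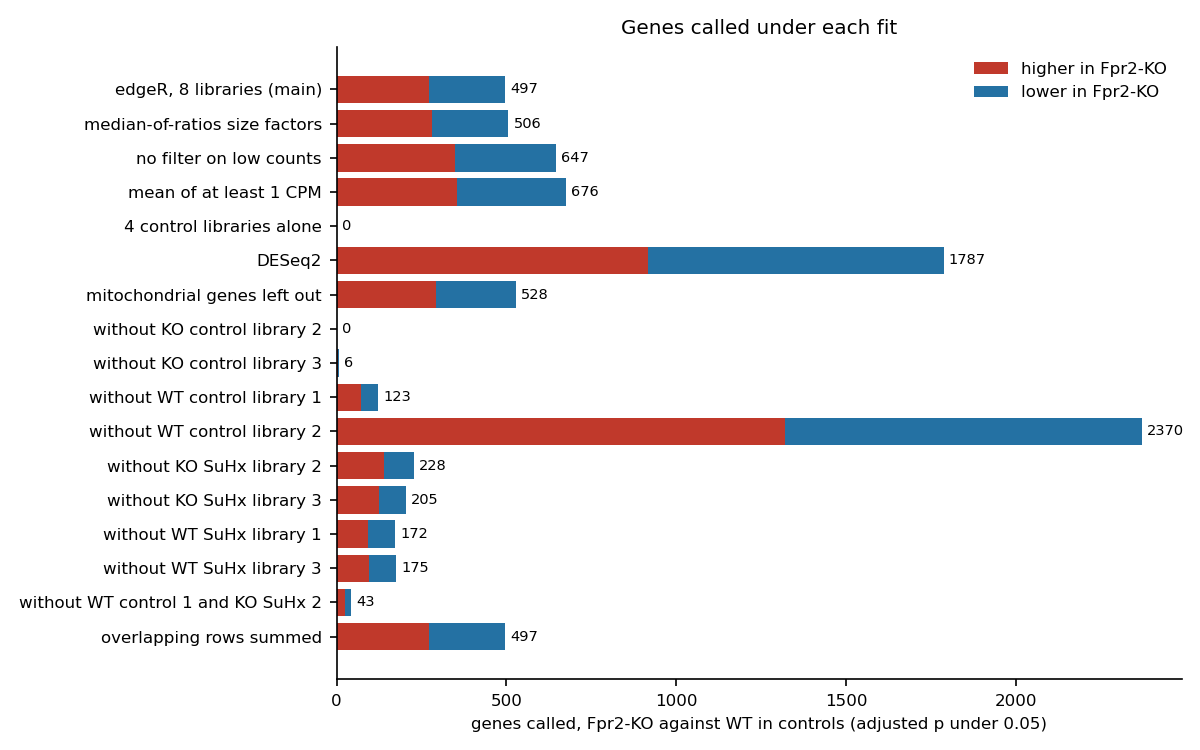
Genes called between Fpr2-KO and WT controls under each fit, with bars split into genes higher (red) and lower (blue) in Fpr2-KO; the x axis is the number of genes with an adjusted p below 0.05. The bars run between 0 genes without Fpr2-KO control 2 and 2370 genes without WT control 2, around 497 in the fit reported.

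Genes of calcium handling and of ion channels in the cardiomyocyte were called mostly on the higher side. In the calcium handling list 3 of 21 tested genes were called and all 3 were higher in Fpr2-KO controls, and in the ion channel list 3 of 21 were higher and 1 was lower, against 1.43% of all genes called higher and 1.18% called lower. The list medians were 0.23 for calcium handling and 0.16 for ion channels on the log2 scale, beside -0.0034 for all tested genes. The ion channel median was 0.04 without Fpr2-KO control 2, 0.08 without Fpr2-KO control 3 and 0.10 without WT control 1. Cacnb2 (chr2:14603088-14987908, plus strand), the beta subunit that brings the L-type calcium channel to the membrane, was at 106 and 109 CPM in Fpr2-KO controls and 30.8 and 38.5 CPM in WT controls. It had the smallest adjusted p of the genes described here (log2 fold change 1.63 ± 0.12, SE; adjusted p = 0.00691, edgeR), and its libraries were far apart between genotypes and close within them. Casq2, the calcium store protein calsequestrin 2, was at 497 and 483 CPM in Fpr2-KO controls and 276 and 317 CPM in WT controls (0.73 ± 0.12; adjusted p = 0.0248, edgeR). Slc8a1, the sodium-calcium exchanger, was at 309.7 and 274 CPM in Fpr2-KO controls and 217 and 180.4 CPM in WT controls (0.56 ± 0.11; adjusted p = 0.0428, edgeR). Both the store and the exchanger gene were thus higher without overlap of libraries.

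Among the channels, Kcnj5, a subunit of the acetylcholine-activated potassium channel, was at 89.5 and 112 CPM in Fpr2-KO controls and 40.7 and 51.7 CPM in WT controls (1.12 ± 0.15; adjusted p = 0.0190, edgeR). The T-type calcium channel gene Cacna1g was at 17.3 and 17.4 CPM in Fpr2-KO controls and 2.59 and 5.96 CPM in WT controls (2.02 ± 0.34; adjusted p = 0.0311, edgeR). Kcnip2, the partner of the transient outward potassium channel, moved the other way, at 171 and 174 CPM in Fpr2-KO controls and 268 and 249 CPM in WT controls (-0.58 ± 0.10; adjusted p = 0.0311, edgeR). Leaving out WT control 1 left 2 calls in the calcium list and 3 in the channel list, leaving out Fpr2-KO control 3 left 1 and 0, and leaving out Fpr2-KO control 2 left none. With WT control 2 left out there were 5 calls in the calcium list, all higher, and 7 in the channel list, 5 higher and 2 lower. The summed cardiomyocyte and atrial markers differed between these libraries as given above, and their part in these changes was not tested.

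Contractile and load-responsive genes gave 3 calls, all higher, against 1.43% of all genes. Of 24 sarcomere genes 1 was called, Nebl, whose product nebulette lies at the Z-disc, at 295 and 299 CPM in Fpr2-KO controls and 190.3 and 183 CPM in WT controls (0.67 ± 0.11; adjusted p = 0.0261, edgeR). Of 17 load and hypertrophy genes 2 were called and both were higher. Xirp2, an actin-binding protein of the intercalated disc, was at 256 and 233 CPM in Fpr2-KO controls and 109 and 136 CPM in WT controls (0.999 ± 0.13; adjusted p = 0.0187, edgeR), and Fhl1, a LIM protein of the sarcomere, was at 281 and 395 CPM in Fpr2-KO controls and 179 and 177 CPM in WT controls (0.92 ± 0.16; adjusted p = 0.0301, edgeR). The growth factor gene Ccn2 was low in both Fpr2-KO libraries, at 134 and 133 CPM, against 1259 and 616 CPM in WT controls, but missed the threshold (-2.81 ± 0.58; adjusted p = 0.0763, edgeR). The cardiac actin gene Actc1, at 5142 and 4474 CPM in Fpr2-KO controls and 1984 and 3208 CPM in WT controls, missed it as well (0.89 ± 0.20; adjusted p = 0.0560, edgeR). Neither list had a call without Fpr2-KO control 2 or 3, Xirp2 was still called without WT control 1, and 3 sarcomere and 4 load genes were called without WT control 2.

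Genes of vessel growth made up the list with the most calls. Of 25 tested genes of VEGF, apelin, angiopoietin and endothelin signalling, 6 were called, all higher in Fpr2-KO controls, against 1.43% of all genes called higher, and the list median was 0.33 on the log2 scale. Nrp1 (chr8:128358604-128462081, plus strand), a co-receptor of VEGF and semaphorins, was at 113 and 98.3 CPM in Fpr2-KO controls and 47.7 and 49.4 CPM in WT controls (1.12 ± 0.11; adjusted p = 0.0136, edgeR). Its relative Nrp2 was at 31.9 and 27.7 CPM in Fpr2-KO controls and 13.1 and 18.5 CPM in WT controls (0.92 ± 0.17; adjusted p = 0.0320, edgeR). Both co-receptors were thus higher with no overlap of libraries. Angpt2, an antagonist of the endothelial receptor Tie2, was at 5.20 and 5.12 CPM in Fpr2-KO controls and 1.94 and 1.87 CPM in WT controls (1.44 ± 0.21; adjusted p = 0.0218, edgeR), and its model overlaps Mcph1 on the other strand. Ednra, the endothelin A receptor of smooth muscle, was at 68.3 and 64.3 CPM in Fpr2-KO controls and 30.0 and 40.2 CPM in WT controls (0.92 ± 0.15; adjusted p = 0.0284, edgeR).

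The apelin receptor and its ligand were both higher. Aplnr was at 12.4 and 13.97 CPM in Fpr2-KO controls and 1.80 and 3.65 CPM in WT controls (2.27 ± 0.39; adjusted p = 0.0360, edgeR). Apln, named after its values were seen, was at 3.19 and 1.95 CPM in Fpr2-KO controls and 0.847 and 0.805 CPM in WT controls (1.64 ± 0.30; adjusted p = 0.0327, edgeR). Endothelial markers, none of them at 0, did not share one direction. Of 18 tested, 5 were higher and 6 lower at an unadjusted p below 0.05, edgeR called 2, both lower, and DESeq2 called 7, 2 higher and 5 lower. With no filter on low counts, edgeR called 1 higher as well. Summed over 18 endothelial markers, Fpr2-KO controls held 4399.9 and 4990.0 CPM and WT controls held 5280.0 and 4832 CPM. Cldn5, a tight junction protein, was at 11.9 and 12.0 CPM in Fpr2-KO controls and 41.7 and 23.7 CPM in WT controls (-1.46 ± 0.29; adjusted p = 0.0422, edgeR), and Car4, a carbonic anhydrase of capillary endothelium, was at 22.6 and 27.1 CPM in Fpr2-KO controls and 55.7 and 42.2 CPM in WT controls (-0.98 ± 0.17; adjusted p = 0.0297, edgeR). In bulk tissue, fewer cells of a type and less RNA per cell cannot be told apart. In the vessel list 1 gene was called when WT control 1 or Fpr2-KO control 3 was left out, and 0 when Fpr2-KO control 2 was. With WT control 2 left out, 9 were called, 8 higher and 1 lower, and the median was 0.59.

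Immediate early genes, which hormonal and mechanical stimuli switch on within minutes, gave calls on the lower side in the fit reported. Of 24 tested, 3 were called lower in Fpr2-KO controls and 0 higher, against 1.18% and 1.43% of all genes. Their log2 fold changes were below 0 for 16 genes and above 0 for 8, with a median of -0.67. The median was -0.24 without WT control 1, -0.42 without WT control 2 and -0.33 without Fpr2-KO control 2. Many such genes are switched on through cyclic AMP response elements, short sites that the factor CREB binds. The promoters of 2 of the called genes are shown because they hold these letters, as RefSeq gives them on GRCm38.p6, from 250 bases before the start to 50 after it, with every CGTCA (or TGACG, its reverse complement) in capitals. The Nr4a1 promoter is at chr15:101266596-101266895 on the plus strand and the Btg2 promoter at chr1:134079106-134079405 on the minus strand.
Nr4a1: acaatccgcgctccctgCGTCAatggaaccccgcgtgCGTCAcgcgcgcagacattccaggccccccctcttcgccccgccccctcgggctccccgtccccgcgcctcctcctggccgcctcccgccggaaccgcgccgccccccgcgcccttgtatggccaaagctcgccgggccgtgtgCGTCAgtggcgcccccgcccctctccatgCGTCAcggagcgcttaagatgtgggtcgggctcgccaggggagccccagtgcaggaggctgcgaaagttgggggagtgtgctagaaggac
Btg2: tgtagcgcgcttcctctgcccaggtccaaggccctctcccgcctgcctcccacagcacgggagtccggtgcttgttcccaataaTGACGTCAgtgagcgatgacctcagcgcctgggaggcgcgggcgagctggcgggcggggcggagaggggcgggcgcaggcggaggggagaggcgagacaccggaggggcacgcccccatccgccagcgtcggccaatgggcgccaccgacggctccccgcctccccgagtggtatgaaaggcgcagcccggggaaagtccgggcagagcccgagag
The Nr4a1 window held the 5 letters 4 times over both strands, and 0.231% of 32851 promoter windows of this length held them at least 4 times. This RefSeq start lies inside the longer Nr4a1 model of the count table. The Btg2 window held the full palindrome TGACGTCA, in which both strands' 5 letters overlap, as 1.79% did. At least 1 CGTCA or TGACG stood in 20.8% of the windows. The third called gene, Fosl2, had none of these letters in its window, and a match of letters shows no binding.

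Nr4a1 (chr15:101254269-101274795, plus strand), an orphan nuclear receptor, was at 45.0 and 35.7 CPM in Fpr2-KO controls and 142 and 212 CPM in WT controls (-2.13 ± 0.33; adjusted p = 0.0311, edgeR). Btg2 (chr1:134075170-134079120, minus strand), an inhibitor of cell division, was at 30.0 and 42.9 CPM in Fpr2-KO controls and 234 and 112 CPM in WT controls (-2.24 ± 0.38; adjusted p = 0.0412, edgeR). Fosl2, a subunit of the AP-1 factor, was at 25.3 and 24.7 CPM in Fpr2-KO controls and 43.0 and 56.3 CPM in WT controls (-0.99 ± 0.16; adjusted p = 0.0248, edgeR). All 3 separated the genotypes without overlap. Fosb was at 1.29 and 1.08 CPM in Fpr2-KO controls and 1.83 and 8.87 CPM in WT controls and was not called (-2.17 ± 0.67; adjusted p = 0.118, edgeR). When WT control 1 was left out, 4 immediate early genes were called, and when Fpr2-KO control 2 or 3 was, 0 were. With WT control 2 left out, the calls of this list went in both directions. Nr4a1, Btg2 and Fosl2 themselves stayed below 0 with any single library left out. Their log2 fold changes nearest to 0 were then -1.81, -1.61 and -0.77, in fits that share libraries with the fit reported.

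Of the genes that glucocorticoids and fasting induce, 1 was called. All 20 tested genes had log2 fold changes below 0, the median was -1.17 beside -0.0034 for all genes, 10 had an unadjusted p below 0.05, and the called gene was lower, against 1.18% of all genes. DESeq2 called 8, all lower. Without WT control 1 the median was -0.61. Sesn1, a sestrin that restrains the growth kinase mTORC1, was at 95.2 and 80.1 CPM in Fpr2-KO controls and 397 and 236 CPM in WT controls (-1.85 ± 0.27; adjusted p = 0.0241, edgeR). Pdk4, the kinase that shuts pyruvate out of the mitochondrion in fasting, was at 724 and 761 CPM in Fpr2-KO controls and 4672 and 2544 CPM in WT controls, and Fkbp5, a co-chaperone of the glucocorticoid receptor, was at 28.7 and 28.7 CPM in Fpr2-KO controls and 167 and 83.3 CPM in WT controls. Neither was called (adjusted p = 0.0756 and 0.105 in edgeR), and the WT libraries were far apart from each other for both. Klf9, another target of the glucocorticoid receptor, was at 124 and 102 CPM in Fpr2-KO controls and 268 and 157 CPM in WT controls (-0.92 ± 0.26; adjusted p = 0.108, edgeR). WT control 1 was the higher WT library for each of these 4 genes. Of the 20 genes, 2 were called without WT control 1, 5 without WT control 2 and 0 without Fpr2-KO control 2 or 3.

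Of 38 tested genes of fatty acid uptake and oxidation, 36 had log2 fold changes below 0, with a median of -0.19, 14 had an unadjusted p below 0.05, all of them lower, and 1 was called. Of all tested genes, 10.3% were lower at an unadjusted p below 0.05 and 2.60% were called, so the share of calls was near that of all genes. DESeq2 called 10 of the list, all lower, and edgeR without WT control 2 called 7, 6 of them lower. The edgeR call was Mlycd, malonyl-CoA decarboxylase, whose product relieves the block on fatty acid entry into mitochondria, at 140.1 and 146 CPM in Fpr2-KO controls and 299 and 211 CPM in WT controls (-0.83 ± 0.17; adjusted p = 0.0385, edgeR). The mitochondrial carrier Ucp3 was at 26.8 and 23.2 CPM in Fpr2-KO controls and 109.5 and 79.2 CPM in WT controls (-1.92 ± 0.38; adjusted p = 0.0572, edgeR) and the fatty acid transporter Slc27a1 at 379 and 342 CPM in Fpr2-KO controls and 626 and 501 CPM in WT controls (-0.64 ± 0.16; adjusted p = 0.0701, edgeR). Both missed the threshold although their libraries did not overlap. Lipe, hormone-sensitive lipase, was called lower, at 59.6 and 67.1 CPM in Fpr2-KO controls and 144 and 106 CPM in WT controls (-0.98 ± 0.15; adjusted p = 0.0223, edgeR). It stands among 10 adipocyte markers, whose sum was 459.5 and 593 CPM in Fpr2-KO controls and 835 and 690.1 CPM in WT controls. Adiponectin (Adipoq), which only fat cells make in quantity, had 0 and 0 counts in Fpr2-KO controls and 20 and 41 counts in WT controls, and leptin (Lep), resistin (Retn) and Ucp1 had 0 in all 4. The list also holds Fabp4, which capillary endothelium expresses as well and which made up 376 and 500.4 CPM of the sum in Fpr2-KO controls and 663 and 556 CPM in WT controls. The part of fat cells in the lipid genes was not tested. Mlycd was not called without WT control 1 or either Fpr2-KO control, and Lipe was still called without WT control 1.

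Glucose use and the regulators of fuel choice gave 3 calls. Hk2, the insulin-responsive hexokinase, was higher, at 200.1 and 156 CPM in Fpr2-KO controls and 63.2 and 99.99 CPM in WT controls (1.13 ± 0.21; adjusted p = 0.0340, edgeR). Pdk2, a kinase that inhibits pyruvate dehydrogenase, was lower, at 455 and 454 CPM in Fpr2-KO controls and 630.5 and 576 CPM in WT controls (-0.41 ± 0.09; adjusted p = 0.0479, edgeR). These were the 2 calls among 32 genes of glycolysis and glucose use, beside 2.60% of all tested genes called. At an unadjusted p below 0.05 this list had 9 genes (5 higher, 4 lower), beside 20.8% of all genes. DESeq2 called 3 of the list, 2 higher and 1 lower. Perm1, a muscle regulator that works with the nuclear receptors of oxidative metabolism, was the 1 call among 15 fuel regulators, at 394 and 420.0 CPM in Fpr2-KO controls and 203 and 236 CPM in WT controls (0.89 ± 0.14; adjusted p = 0.0241, edgeR). Most other fuel regulators that moved went the other way. At an unadjusted p below 0.05, 1 was higher and 4 were lower, and DESeq2 called 1 higher and 2 lower. None of the 42 nuclear respiratory chain genes was called by edgeR or DESeq2, and 2 had an unadjusted p below 0.05. None of the 13 mitochondrially coded or 33 cytosolic ribosomal protein genes was called by either tool, and 0 had an unadjusted p below 0.05. None of Hk2, Pdk2 and Perm1 was called without WT control 1 or without either Fpr2-KO control.

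**Figure D2:**
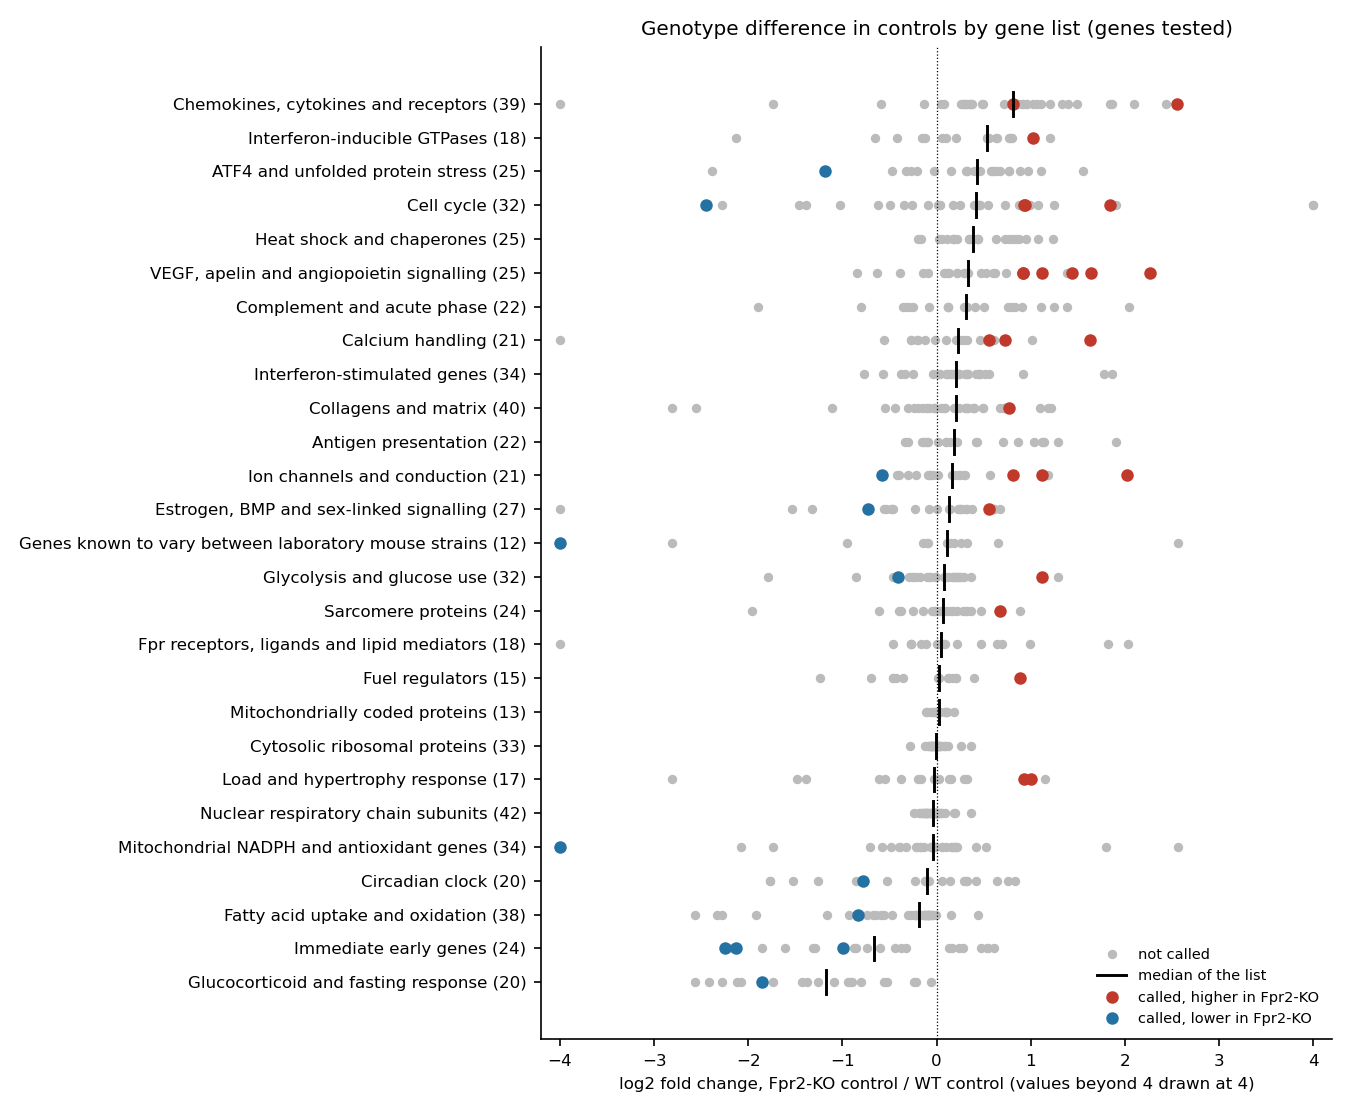
Log2 fold change of each tested gene, Fpr2-KO over WT controls, by gene list (number of tested genes in brackets), with called genes in red (higher in Fpr2-KO) or blue (lower), other genes in grey and the list median as a black bar. Values beyond 4 are drawn at 4; the glucocorticoid and fasting list lies wholly below 0 with a median of -1.17, and the vessel growth list holds 6 red points.

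In the chemokine and cytokine list 35 of 39 tested genes had log2 fold changes above 0, with a median of 0.81, and 2 were called, both higher, against 1.43% of all genes. The median was 0.38 without WT control 1 and 0.45 without Fpr2-KO control 2, and without WT control 2 edgeR called 9, all higher. Ccr2, the receptor that draws monocytes out of the blood, was at 5.27 and 4.11 CPM in Fpr2-KO controls and 0.601 and 0.989 CPM in WT controls (2.56 ± 0.31; adjusted p = 0.0187, edgeR). Cxcl12, a chemokine of stromal and endothelial cells, was at 153 and 129.9 CPM in Fpr2-KO controls and 73.5 and 87.9 CPM in WT controls (0.81 ± 0.16; adjusted p = 0.0406, edgeR). Ccr2 and Cx3cr1 were the 2 calls among 18 macrophage and monocyte markers, both higher, beside 1.43% of all genes called higher. Of the 18 markers, 7 had an unadjusted p below 0.05, 5 higher and 2 lower, beside 20.8% of all genes. Cx3cr1, the fractalkine receptor, was at 0.948 and 1.32 CPM in Fpr2-KO controls and 0.277 and 0.198 CPM in WT controls (2.25 ± 0.47; adjusted p = 0.0471, edgeR), but its model in the table spans the more abundant genes Xirp1, Gorasp1 and Csrnp1 on the same strand, so its reads are uncertain. The integrin Itgam was at 6.42 and 3.83 CPM in Fpr2-KO controls and 0.724 and 1.91 CPM in WT controls and was not called (1.96 ± 0.44; adjusted p = 0.0607, edgeR).

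The summed level of the 18 macrophage and monocyte markers overlapped between genotypes, at 456 and 330.0 CPM in Fpr2-KO controls and 287 and 379.6 CPM in WT controls. Lymphocyte markers did not overlap. The 11 B cell markers summed to 27.3 and 10.7 CPM in Fpr2-KO controls and 5.74 and 6.13 CPM in WT controls, and the 13 T and NK cell markers to 3.27 and 5.70 CPM in Fpr2-KO controls and 1.12 and 1.47 CPM in WT controls. The T cell receptor subunit gene Cd3e had 9 and 30 counts in Fpr2-KO controls and 0 and 0 counts in WT controls. Neutrophil markers came to 3.53 and 16.6 CPM in Fpr2-KO controls and 4.70 and 3.48 CPM in WT controls, so only Fpr2-KO control 3 stood high. edgeR called 0 genes of these 3 lists, with 6 of their 31 tested genes at an unadjusted p below 0.05, and DESeq2 called 4. The part of these cells in the chemokine list was not tested.

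Interferon-inducible genes gave a single call. Gbp2, an interferon-induced GTPase, was at 14.2 and 10.6 CPM in Fpr2-KO controls and 5.37 and 6.75 CPM in WT controls (1.03 ± 0.17; adjusted p = 0.0267, edgeR), the 1 call among 18 such GTPases. Among 34 interferon-stimulated genes edgeR called 0, with 6 at an unadjusted p below 0.05, and DESeq2 called 1. Among 22 antigen presentation genes edgeR called 0, with 2 at an unadjusted p below 0.05, and DESeq2 called 2. Complement and acute phase genes gave 0 calls among 22 in edgeR, with 2 at an unadjusted p below 0.05, and 1 in DESeq2. Leaving out WT control 1 gave 1 call in the chemokine list and 0 among the GTPases, and leaving out either Fpr2-KO control gave 0 in both. With WT control 2 left out there were 6 calls among interferon-stimulated genes, 3 among the GTPases, 5 among antigen presentation genes and 3 in the complement list.

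Cell cycle genes had 4 calls among 32 tested, 3 higher and 1 lower in Fpr2-KO controls, against 1.43% and 1.18% of all genes. The higher ones were Ccnd2 (cyclin D2), the replication helicase subunit Mcm6 and the kinetochore protein Cenpf, with log2 fold changes of 0.94 ± 0.15, 0.93 ± 0.16 and 1.84 ± 0.30. Cenpf was at 18.1 and 9.23 CPM in Fpr2-KO controls and 4.14 and 3.49 CPM in WT controls. The lower one was the mitotic checkpoint kinase Bub1b, at 0.603 and 0.225 CPM in Fpr2-KO controls and 2.97 and 1.60 CPM in WT controls (-2.45 ± 0.50; adjusted p = 0.0424, edgeR). The calls of this list thus went in both directions, and 0 were made without WT control 1 or Fpr2-KO control 2 and 1 without Fpr2-KO control 3. No heat shock gene was called by edgeR, although 23 of 25 had log2 fold changes above 0, with a median of 0.39, 10 had an unadjusted p below 0.05 and DESeq2 called 4. This median was 0.18 without WT control 1 and 0.19 without Fpr2-KO control 3, and without WT control 2 it was 0.59 with 9 calls, 8 higher and 1 lower. The constitutive chaperone Hspa8 was at 2354 and 3250.1 CPM in Fpr2-KO controls and 1380.0 and 1993 CPM in WT controls (0.73 ± 0.21; adjusted p = 0.0993, edgeR).

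The edgeR calls in other lists were as follows. Among BMP, estrogen and sex-linked signalling genes, the receptor Bmpr1a was higher, at 125 and 122 CPM in Fpr2-KO controls and 77.4 and 89.8 CPM in WT controls (0.56 ± 0.10; adjusted p = 0.0319, edgeR). Its effector Smad1 was lower, at 12.0 and 11.2 CPM in Fpr2-KO controls and 20.6 and 17.9 CPM in WT controls (-0.73 ± 0.13; adjusted p = 0.0299, edgeR). Receptor and effector thus changed in opposite directions. The matrix proteoglycan Vcan was the 1 call among 40 matrix genes, at 14.8 and 12.9 CPM in Fpr2-KO controls and 7.18 and 8.97 CPM in WT controls (0.77 ± 0.16; adjusted p = 0.0432, edgeR). Herpud1, a component of endoplasmic reticulum protein disposal, was the 1 call among 25 stress genes of the ATF4 and unfolded protein list, at 149 and 136 CPM in Fpr2-KO controls and 377 and 271 CPM in WT controls (-1.18 ± 0.20; adjusted p = 0.0299, edgeR). Among 20 clock genes 1 was called, lower in Fpr2-KO controls. The clock activator Npas2, at 2.17 and 2.84 CPM in Fpr2-KO controls and 11.8 and 5.24 CPM in WT controls, was not called (-1.77 ± 0.44; adjusted p = 0.0707, edgeR). Of the clock genes 10 had an unadjusted p below 0.05 (3 higher, 7 lower), and of 27 BMP list genes 13 (7 higher, 6 lower). So had 9 stress genes (7 higher, 2 lower) and 12 matrix genes (10 higher, 2 lower). DESeq2 called 9 clock genes (3 higher, 6 lower) and 8 of the BMP list (3 higher, 5 lower). It called 7 stress genes (5 higher, 2 lower) and 6 matrix genes (4 higher, 2 lower). None of the 4 genes Bmpr1a, Smad1, Vcan and Herpud1 was called without WT control 1 or either Fpr2-KO control. With WT control 2 left out, the list medians were 0.47 for matrix genes and 0.38 for stress genes, against 0.20 and 0.43 in the fit reported. They were 0.03 for clock genes and -0.03 for the BMP list, against -0.10 and 0.13. The median of all tested genes was 0.02 without WT control 2. Among marker lists not yet given, edgeR called 0 genes of fibroblasts, lymphatic endothelium, mural cells, red cells, platelets, mast cells, Schwann cells, mesothelium, skeletal muscle, valve and lymphoid organs, and no lung marker was abundant enough to be tested. DESeq2 called 2 fibroblast markers and 1 each of lymphatic endothelium and mural cells. At an unadjusted p below 0.05 there were 2 fibroblast, 2 lymphatic, 4 mural and 1 Schwann cell markers and 0 of the other lists. Fibroblast markers summed to 3185 and 2917 CPM in Fpr2-KO controls and 2912 and 3548 CPM in WT controls, and red cell genes to 60.5 and 368 CPM in Fpr2-KO controls and 314 and 234 CPM in WT controls.

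The genes with the largest fold changes were mostly of low or moderate abundance. By a rule that asked for a mean of at least 2 CPM in the higher group and no overlap, the 14 largest were named in each direction. Banp, a nuclear protein that binds unmethylated CGCG letters, was at 23.5 and 31.0 CPM in Fpr2-KO controls and 2.99 and 5.54 CPM in WT controls (2.67 ± 0.28; adjusted p = 0.0166, edgeR). Egln3, a prolyl hydroxylase that marks hypoxia-inducible factors for decay and is itself induced by them, was at 105 and 125 CPM in Fpr2-KO controls and 24.6 and 42.6 CPM in WT controls (1.77 ± 0.24; adjusted p = 0.0210, edgeR). Fgf16, a growth factor of the heart, was at 19.6 and 27.9 CPM in Fpr2-KO controls and 3.13 and 6.67 CPM in WT controls (2.27 ± 0.34; adjusted p = 0.0241, edgeR). These 3 genes were called in 13, 13 and 9 of 16 alternative fits, beside 14 for Cacnb2 and Nrp1. Pcdh12, a protocadherin of endothelium, was at 12.3 and 11.1 CPM in Fpr2-KO controls and 2.03 and 3.69 CPM in WT controls (2.03 ± 0.30; adjusted p = 0.0225, edgeR). The remaining higher genes, with Ccr2, Aplnr, Cacna1g and Cenpf given above, were Ccdc69, Ddx11, Fam78b, Mfsd4a, 9430062P05Rik and Gm27029, with log2 fold changes between 1.82 for Mfsd4a and 4.24 for Gm27029. Gm27029 overlaps Aarsd1 and Ptges3l on its own strand, so its reads are uncertain.

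On the lower side, Map3k21, a mixed-lineage kinase, was at 0.618 and 0.180 CPM in Fpr2-KO controls and 2.51 and 3.01 CPM in WT controls (-2.78 ± 0.51; adjusted p = 0.0327, edgeR). Sdk2, an adhesion protein, was at 0.646 and 1.01 CPM in Fpr2-KO controls and 3.90 and 3.53 CPM in WT controls (-2.17 ± 0.39; adjusted p = 0.0311, edgeR). Bcl11a, a zinc finger repressor, was at 0.646 and 0.690 CPM in Fpr2-KO controls and 2.85 and 2.46 CPM in WT controls (-1.99 ± 0.29; adjusted p = 0.0210, edgeR). Replicates lay close together for Sdk2 and Bcl11a, although both genes are scarce. Arhgef37 was at 3.91 and 4.80 CPM in Fpr2-KO controls and 21.6 and 12.8 CPM in WT controls (-1.98 ± 0.31; adjusted p = 0.0241, edgeR), and Ifnlr1, the receptor for interferon lambda, at 1.44 and 1.73 CPM in Fpr2-KO controls and 9.67 and 4.49 CPM in WT controls (-2.16 ± 0.39; adjusted p = 0.0311, edgeR). Cyp4f17, Rgs17 and Gm28875 fell by 1.87, 1.85 and 1.88 on the log2 scale. Gm42688 fell by 3.84, but it overlaps Mrpl53 on its own strand, so its reads are uncertain. In all, 17 called genes, some with larger fitted values, had 0 counts in both libraries of a genotype, 10 of them in Fpr2-KO and 7 in WT controls, and are described only by this count apart from the Nnt row given below.

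**Figure D3:**
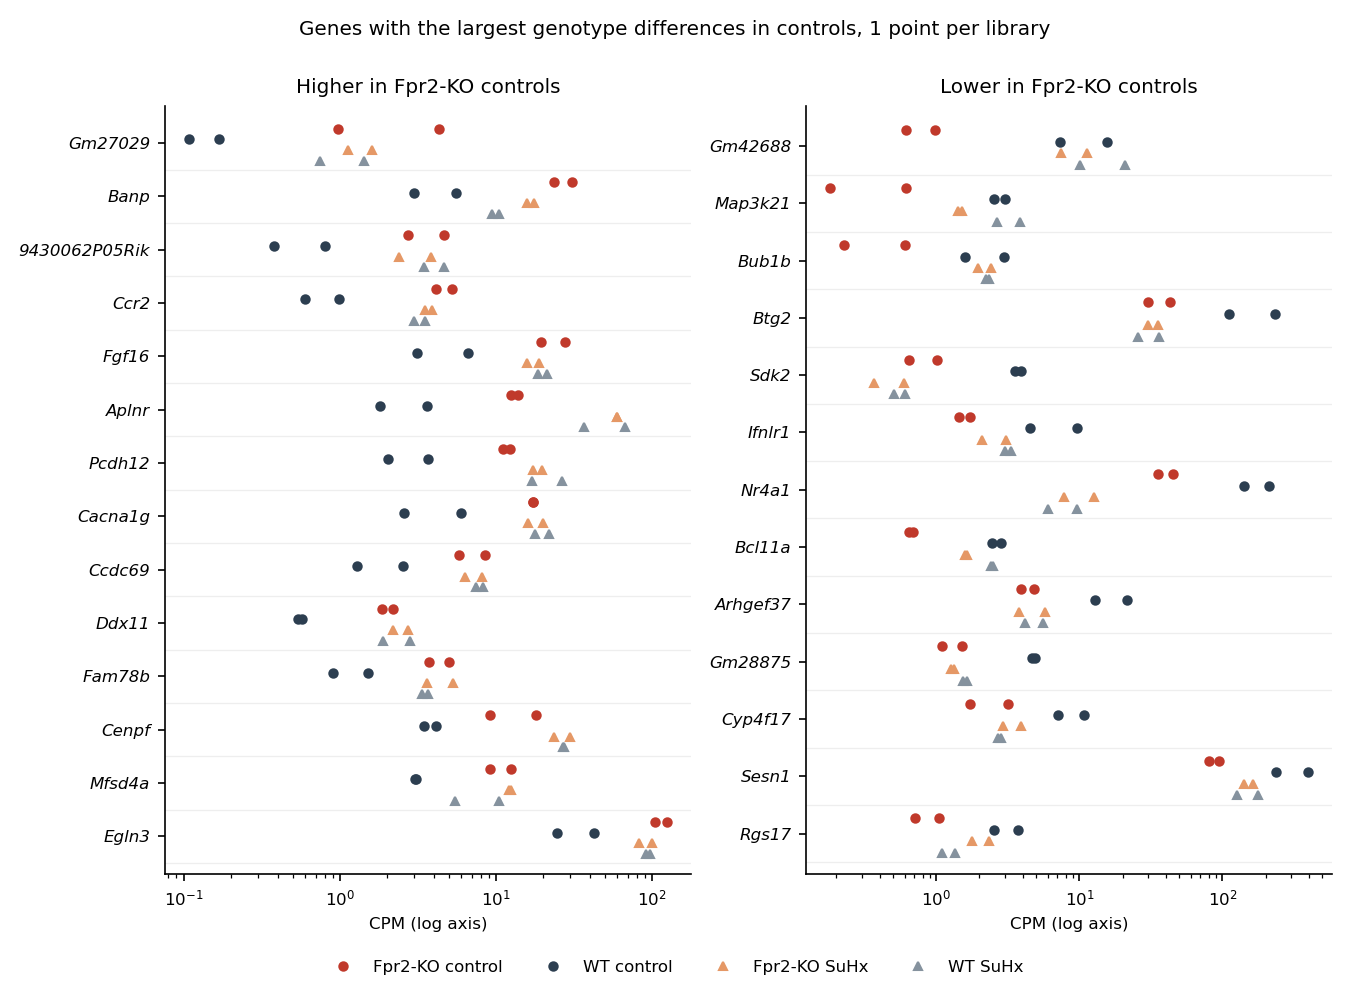
Expression in CPM (log axis) of the genes with the largest called differences in controls, 1 point per library, for Fpr2-KO controls (red circles), WT controls (dark circles), Fpr2-KO SuHx (orange triangles) and WT SuHx (grey triangles). Circles of the 2 genotypes stand apart for every gene because only such genes were chosen. The triangles, which the choice did not use, overlap between genotypes for 19 of the 27 genes. The share of all tested genes that overlap there was not counted, so this number is not read as a result. Banp, Bcl11a and Map3k21 are among the 8 that do not overlap. Rgs17 and Cyp4f17 are among these 8 as well, with the genotypes in the opposite order to that in controls.

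Nnt needs its own account, because the table lists it as 2 overlapping gene rows on chromosome 13 with fold changes of opposite sign. Nnt encodes the transhydrogenase of the inner mitochondrial membrane that makes NADPH, and it is known to be partly deleted in some laboratory mouse substrains and intact in others. It gave the 1 call among 34 genes of mitochondrial NADPH and antioxidant defence and the 1 call among 12 genes known to vary between mouse strains. Of all tested genes 2.60% were called. At an unadjusted p below 0.05 the antioxidant list had 11 genes (4 higher, 7 lower) and the strain list 3 (1 higher, 2 lower), Nnt included, beside 20.8% of all genes. DESeq2 called 6 of the antioxidant list (2 higher, 4 lower) and 2 of the strain list (1 higher, 1 lower). The row ENSMUSG00000116207 (chr13:119335528-119408952, minus strand) had 0 counts in all 4 Fpr2-KO libraries, against 45195 and 17138 counts in the WT controls and 16037 and 12351 counts in the WT SuHx libraries, and it was called lower (adjusted p = 0.0378, edgeR). The row ENSMUSG00000025453 (chr13:119335448-119408997, minus strand) had 103194 and 96155 counts in Fpr2-KO controls and 6023 and 28437 counts in WT controls, and was not called (2.56 ± 0.66; adjusted p = 0.112, edgeR). It was called higher when either WT control was left out, with log2 fold changes of 1.87 without WT control 1 and 3.99 without WT control 2. In the GENCODE M21 annotation all 3339 exonic bases of the first row also lie in exons of the second, which has 3698 further bases of its own. Reads on the shared bases cannot be told apart by position, so their split rests on the counting. The 2 rows added together gave 1482 and 1443 CPM in Fpr2-KO controls and 789 and 644 CPM in WT controls. They gave 798 and 843 CPM in Fpr2-KO SuHx and 545 and 511 CPM in WT SuHx libraries. Summed before the fit, an alternative added after the rows were seen, Nnt was higher in Fpr2-KO controls (1.03 ± 0.11; adjusted p = 0.0168, edgeR) and 0.63 ± 0.11 higher under SuHx (unadjusted p = 0.000346, adjusted p = 1). The called row was thus lower and the sum of both rows higher, while the total of 497 calls was the same after all such rows were summed. The labels give no strain, and its part in this difference was not tested.

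**Figure D4:**
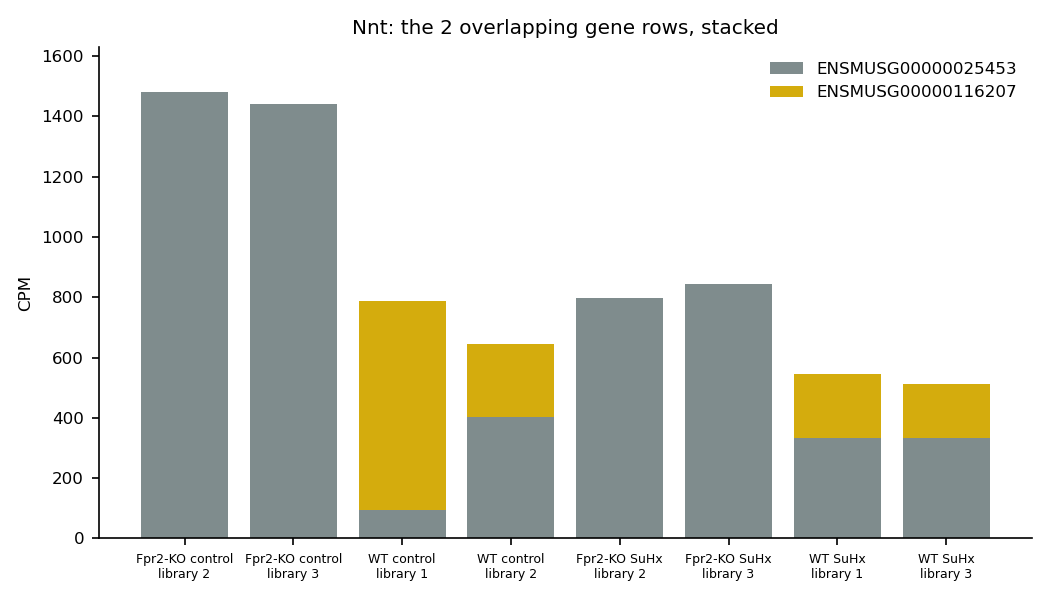
CPM of the 2 overlapping Nnt rows in each library, stacked, with Fpr2-KO left of WT for controls and then for SuHx. The row ENSMUSG00000116207 (yellow) is absent from the 4 Fpr2-KO libraries, and the stacked total in controls is 1482 and 1443 CPM in Fpr2-KO and 789 and 644 CPM in WT.

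The same genotype contrast was then read in the SuHx libraries, which are other libraries than the controls. There edgeR called 0 genes between Fpr2-KO and WT, with 664 (3.48%) at an unadjusted p below 0.05, against 3970 (20.8%) in controls. DESeq2 called 17. The fit shares 1 spread, although replicates differed more in controls. Their median absolute log2 difference was 0.17 in Fpr2-KO and 0.21 in WT controls, against 0.14 and 0.12 under SuHx. With each condition fitted alone in edgeR, 2763 genes in controls and 1108 under SuHx had an unadjusted p below 0.05. Of the 497 genes called in controls, 260 (52.3%) had the same direction under SuHx, beside 52.2% of all tested genes. Their median absolute log2 fold change was 0.13 under SuHx and 0.92 in controls, beside 0.16 and 0.31 for all tested genes. The test of the difference itself, genotype by SuHx, gave 0 calls in edgeR, with 2417 genes (12.7%) at an unadjusted p below 0.05 and a smallest adjusted p of 0.0794, and 512 calls in DESeq2. In the edgeR fit reported, the 2 effects are thus not shown to differ for any single gene, while edgeR with no filter called 12. With WT control 2 left out edgeR called 756 genes for the interaction. Fpr2-KO SuHx 2 is the library with the atrial genes given above, and without it edgeR called 1 gene under SuHx and 0 for the interaction.

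Single genes show what these medians hold. Cacnb2 was at 71.1 and 75.4 CPM in Fpr2-KO SuHx and 82.6 and 75.5 CPM in WT SuHx libraries (-0.11 ± 0.12), and Egln3 at 99.8 and 82.6 CPM in Fpr2-KO SuHx and 91.3 and 97.1 CPM in WT SuHx libraries (-0.05 ± 0.23). Nr4a1 was at 12.6 and 7.77 CPM in Fpr2-KO SuHx and 6.001 and 9.68 CPM in WT SuHx libraries (0.38 ± 0.33). For Egln3 and Nr4a1 the genotypes overlapped under SuHx, and for Cacnb2 the nearest libraries were 75.4 CPM in Fpr2-KO and 75.5 CPM in WT. Of the 497 genes, 37 had an unadjusted p below 0.05 under SuHx, 16 in the same direction as in controls and 21 in the opposite one. Among the 16 was Banp, at 15.9 and 17.6 CPM in Fpr2-KO SuHx and 9.44 and 10.5 CPM in WT SuHx libraries (0.75 ± 0.26). Map3k21 was another, at 1.51 and 1.42 CPM in Fpr2-KO SuHx and 2.64 and 3.86 CPM in WT SuHx libraries (-1.15 ± 0.47). The glucocorticoid and fasting list had a median of 0.02 under SuHx, and the fatty acid list had a median of -0.25 there.

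**Figure D5:**
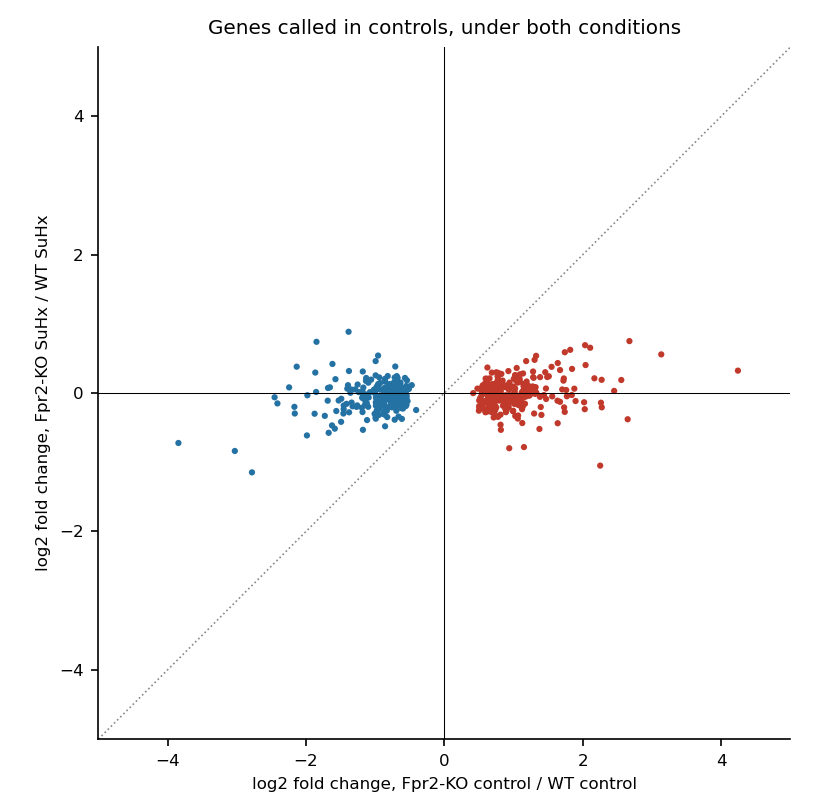
Log2 fold change of Fpr2-KO over WT in controls (x axis) and under SuHx (y axis) for 480 of the 497 genes called in controls, red where higher and blue where lower in Fpr2-KO controls; the 17 genes at 0 counts in a genotype are not drawn, and the dotted line marks equal changes. The points lie in 2 groups left and right of 0 and close to 0 on the y axis, with a median absolute value of 0.13 there against 0.92 on the x axis.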

How the data were processed

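Poly(A) RNA was sequenced from the right ventricle with a strand-marking (dUTP) paired-end protocol, per the labels' protocols. The submitters' processing notes name cutadapt 1.9, HISAT2 2.2.1, StringTie 2.1.6, DESeq2, edgeR and the build mm10, with no roles given. The authors deposited 1 table of raw read counts per gene; its 8 FPKM columns were not used. Counts split between overlapping gene models rest on that upstream counting. Of 30495 genes, 11412 were removed by edgeR's filterByExpr by group and 19083 tested with edgeR 4.0.16 (R 4.3.3): TMM scaling, 1 mean per group over all 8 libraries, common biological coefficient of variation 25.1%, quasi-likelihood test, Benjamini-Hochberg adjustment, threshold 0.05. DESeq2 1.42.0 was an alternative, as were other scalings, filters, single libraries left out and overlapping rows summed. Control libraries held 67965311 to 70052583 counts. The floor for a count of 0 was 3 counts over the group, and it covers counting error only.

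Fpr2-KO columns carry the numbers 2 and 3 and could be tied to their group but not to a title. The samples compared, the 27 gene lists and the 20 marker lists were chosen with earlier results of these data known. Named genes were the Fpr list, the 14 largest called changes in each direction (no overlap, mean of at least 2 CPM in the higher group), up to 4 members with the smallest p per list, and called genes within 2 Mb of Fpr2. CPM does not correct for gene length, so levels of different genes are not compared. The edgeR step was tested on simulated data. Values of some genes are not reported here.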

Additional observations from a re-analysis of the deposited data

Results flagged for a closer look

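For 12 of the called genes named above, the 2 Fpr2-KO libraries lay on one side of the 2 WT libraries in controls and on the other side under SuHx. The share of all tested genes that did so was not counted, so the number is not read as a result about these genes. None of these differences passed the interaction test in edgeR over all genes, so each is given as a value: the genotype difference under SuHx minus that in controls, on the log2 scale with its SE and adjusted p. It was -1.74 ± 0.17 for Cacnb2 and -1.33 ± 0.15 for Nrp1 (adjusted p = 0.0794 in edgeR for both) and -1.27 ± 0.23 for Cxcl12 (0.118). It was -3.30 ± 0.63 for Cx3cr1, -1.56 ± 0.29 for Hk2, 2.59 ± 0.50 for Rgs17 and -1.13 ± 0.22 for Mcm6 (0.122 for each). It was 0.88 ± 0.18 for Smad1 (0.130), -1.15 ± 0.24 for Gbp2 (0.134), -1.10 ± 0.23 for Nrp2 (0.140), 2.16 ± 0.48 for Cyp4f17 (0.152) and -0.69 ± 0.16 for Slc8a1 (0.165). Nrp1, for example, was at 88.0 and 80.8 CPM in Fpr2-KO SuHx and 93.9 and 101 CPM in WT SuHx libraries, below WT, after being above WT in controls.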

How the results depend on the processing

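No paired analysis was possible because the column numbers of the Fpr2-KO controls (2 and 3) and the WT controls (1 and 2) share only 1 number. The 497 calls (272 higher, 225 lower) became 506 with median-of-ratios size factors, 647 with no filter, 676 at a mean of at least 1 CPM, 528 without mitochondrial genes and 497 with overlapping rows summed. They became 1787 (917 higher, 870 lower) with DESeq2, 0 (0 and 0) on the 4 control libraries alone, and 208 (121 and 87) with at least 2-fold change required. Leaving out 1 library at a time gave 0 to 2370 calls, 0 to 1320 higher and 0 to 1050 lower. The 0 calls under SuHx became 17 with DESeq2, 2 on the 4 SuHx libraries alone and 0 to 5 with 1 library left out. The 0 interaction calls became 12 with no filter, 512 with DESeq2 and 0 to 756 with 1 library left out. Without both WT control 1 and Fpr2-KO SuHx 2, a choice made after seeing the data, there were 43 calls (24 higher, 19 lower), 3 under SuHx and 2 for the interaction. A fit with 1 library left in a group assumes that it varies like the others. The cause of these moves was not tested. All 497 genes kept their direction wherever they had a value, in fits that share control libraries with the one that chose them. The exception was the Nnt row at 0 in Fpr2-KO, which merged into a sum that was higher. Of the 497 genes, 466 stayed called under all 5 other scalings, filters and tools on the 8 libraries. The Fpr2 counts limit its own test.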
